A study of Mus musculus with 6 samples.

Results

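A set of 50 genes of germ cells, meiosis and sperm was examined in MPC5, a mouse cell line derived from podocytes of the kidney filter. The genes were taken by symbol, and 38 of the 50 had a row in the deposited table of 21719 genes. Dazl, Sycp1, Sycp2l, Tex11, Hormad1, Piwil1, Mei1, Meioc, Catsper1, Spata16, Odf3b and Dnmt3l were not analysed here. The members were chosen by name with their read counts and fold changes in the contrast below already known, so the members' reads and fold changes are given as a description, with no test of the members as a set.

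RNA was sequenced from 6 libraries, 3 labelled Setdb2KO and 3 labelled Setdb2WT. All 6 came from MPC5 cells in high glucose, so no library without high glucose enters the comparison. Setdb2 codes for a relative of the enzymes that methylate histone H3 at lysine 9, a mark of silent chromatin. The labels do not say how the gene was edited, whether the edited cells were a clone or a pool, or whether a group's 3 libraries were grown as separate cultures. The fitted errors therefore measure the spread between these libraries, which may be technical.

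In most body cells, genes of the germ line are kept silent by DNA methylation of their promoters and by repressor complexes that read short DNA motifs, among them a noncanonical Polycomb complex with E2F6, MGA and MAX. In the testis the same genes build germ cells. PIWI proteins and Tudor proteins make and use piRNAs, small RNAs that silence transposons. The synaptonemal complex and meiotic cohesins hold paired chromosomes together while SPO11 breaks and DMC1 repairs DNA. Later genes build the sperm tail and its calcium channel, CatSper. Some genes named after the testis are also read in other tissues, such as Odf2, whose protein is part of centrioles.

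Library totals lay between 36461449 and 37129174 reads. Setdb2 itself had 17, 15 and 25 reads in the libraries labelled Setdb2KO, against 12, 10 and 9 in those labelled Setdb2WT, so the targeted gene was not lower under the knockout label and the groups are called by their labels. Of 13509 genes tested across the table, 83.8% passed an adjusted p of 0.05 (edgeR's quasi-likelihood test, Benjamini-Hochberg adjusted), so a called gene is the common case here. The library labelled Setdb2KO replicate 2 stood apart from its group, as counts compared gene by gene gave a chi-square of 8.36 and 14.8 for each degree of freedom against the other 2 libraries, and 4.21 between those. Among podocyte markers, Podxl had 176, 195 and 203 reads in the libraries labelled Setdb2KO, against 1779, 1828 and 1695 in those labelled Setdb2WT. The podocyte transcription factor Wt1 had at most 2 reads in any library.

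The DNA before the start of 4 members is shown first, because these are the members with the largest fold changes among those with a mean of at least 0.5 CPM (reads per 1000000 reads, after TMM scaling of the library sizes) and a promoter entry. Each sequence is the 250 bases before the first start that RefSeq lists, on GRCm38.p6, read along the gene's strand. The authors' alignment used GRCm39, whose coordinates differ. Capitals mark matches to CACGTG, the E-box bound by MGA and MAX, and to TCCCGC or its reverse complement GCGGGA, the core of an E2F6 site.
Catsperd, chr17:56626797-56627046, plus strand: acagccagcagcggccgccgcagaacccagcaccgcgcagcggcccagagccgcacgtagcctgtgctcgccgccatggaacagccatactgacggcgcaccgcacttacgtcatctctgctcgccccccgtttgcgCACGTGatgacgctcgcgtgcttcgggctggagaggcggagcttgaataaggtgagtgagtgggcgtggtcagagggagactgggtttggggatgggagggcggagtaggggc
Iqcn, chr8:70701775-70702024, plus strand: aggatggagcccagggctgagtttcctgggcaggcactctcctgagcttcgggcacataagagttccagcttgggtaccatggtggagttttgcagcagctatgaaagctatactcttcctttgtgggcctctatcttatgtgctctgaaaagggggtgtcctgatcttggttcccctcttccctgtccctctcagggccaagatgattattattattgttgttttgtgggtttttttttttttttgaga
Ddx4, chr13:112652311-112652560, minus strand: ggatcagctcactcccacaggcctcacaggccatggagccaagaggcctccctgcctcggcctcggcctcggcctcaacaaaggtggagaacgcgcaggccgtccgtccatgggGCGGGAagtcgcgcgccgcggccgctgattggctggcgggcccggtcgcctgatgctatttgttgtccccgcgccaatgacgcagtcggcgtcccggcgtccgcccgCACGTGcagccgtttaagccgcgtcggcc
Brdt, chr5:107330944-107331193, plus strand: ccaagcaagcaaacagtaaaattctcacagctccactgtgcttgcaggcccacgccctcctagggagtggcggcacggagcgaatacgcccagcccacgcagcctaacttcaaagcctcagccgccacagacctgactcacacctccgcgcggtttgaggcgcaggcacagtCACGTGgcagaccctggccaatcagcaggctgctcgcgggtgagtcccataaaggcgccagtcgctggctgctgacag

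The E-box stood once in 3 of these 4 windows, beginning 113 bases before the start in Catsperd, 29 in Ddx4 and 78 in Brdt. Ddx4 also held an E2F6 core 136 bases before its start. The Iqcn window held neither motif and a single CpG, the dinucleotide that DNA methylation marks, whereas the windows of Catsperd, Ddx4 and Brdt held 25, 31 and 16. Both strands were searched, and the 2 motifs do not overlap each other in these windows. Of 38 members in the table, 33 had a promoter entry, and 11 of the 33 (33.3%) held the E-box, against 7.63% of 12811 protein-coding genes of the table with an entry and 6.05% of all 27025 entries. The E2F6 core stood in 11 of the 33 (33.3%), against 27.1% of those protein-coding genes and 16.9% of all entries. The median number of CpGs in the window was 14 in members and 14 in those protein-coding genes. The 11 members with an E-box were Brdt, Catsperd, Ddx4, Mael, Mov10l1, Slc25a31, Stag3, Sycp3, Taf7l, Tdrd1 and Tdrd9. They include members that were higher, Tdrd9 that was lower, and members with hardly any reads in either group. Tdrd6, Tex15 and Spo11 had no entry. A match is a run of letters, not a shown binding site.

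Most members had few reads. Of those called with at least a 2-fold difference, 8 were higher and 1, Tdrd9, lower in the libraries labelled Setdb2KO. Of the 38 members in the table, 19 passed the filter on low counts, which asks for about 10 reads in at least 3 libraries. Of these 19, 13 were higher and 5 lower in the libraries labelled Setdb2KO at an adjusted p under 0.05, and Spag6 did not pass. Over all genes tested, 41.5% were higher and 42.3% lower. The member counts rest on the contrast that was known when the list was made, and nothing is read from them. Of all genes tested, 16.4% were at least 2-fold higher and 16.2% at least 2-fold lower. Ddx4, Taf7l, Tdrd6, Piwil2, Catsperd, Iqcn, Spag6 and Slc25a31 passed the filter through the libraries labelled Setdb2KO alone, so they could enter the fit only by being high there. Tdrd9 passed it through the libraries labelled Setdb2WT alone, so it could enter the fit only by being high in those. Without Setdb2KO replicate 2, 12 members were higher and 5 lower. Over all 38, the 3 libraries labelled Setdb2KO lay above all 3 labelled Setdb2WT in 17 members, below them in 7, and overlapped in 14. Over the 21719 genes 30.6% lay above and 29.8% below without overlap, and over the genes tested 42.0% lay above and 42.7% below.

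**Figure D1:**
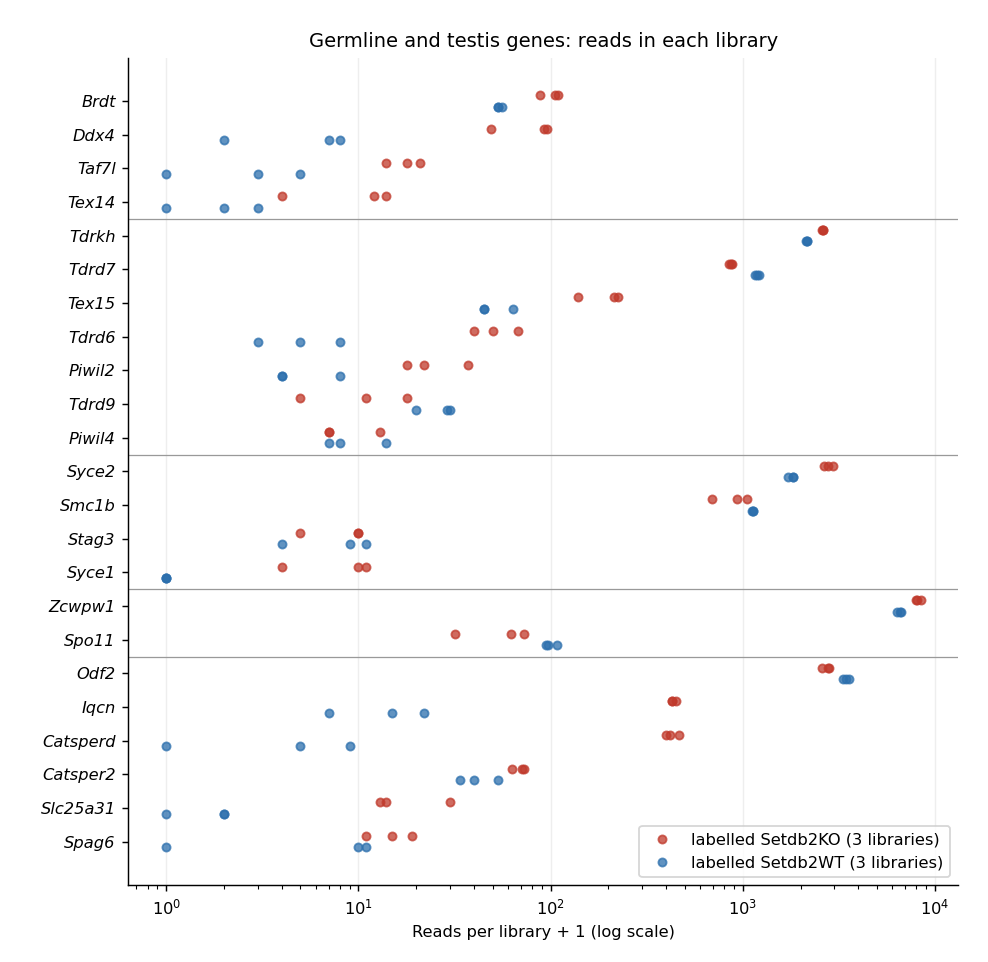
Reads per library plus 1 (log axis) for the 23 members with at least 10 reads in a library, each point a library, labelled Setdb2KO (red) drawn above labelled Setdb2WT (blue) in each row, with lines between the role groups. Catsperd and Iqcn show the widest gap between the groups, while the groups of the most read members, such as Zcwpw1 and Odf2, lie close together.

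Among factors that make or mark germ cells, Ddx4, Taf7l and Brdt were higher in the libraries labelled Setdb2KO. Ddx4, the germ cell RNA helicase also called Vasa, had 91, 48 and 95 reads in the libraries labelled Setdb2KO, against 7, 6 and 1 in those labelled Setdb2WT. The groups did not overlap, Setdb2KO replicate 2 was the lowest of its group, and the log2 fold change was 3.89 (SE 0.45). Taf7l, an X-linked relative of a subunit of the general transcription factor TFIID, had 17, 20 and 13 reads in the libraries labelled Setdb2KO, against 4, 2 and 0 in those labelled Setdb2WT, a log2 fold change of 2.85 (SE 0.63). Its value depended on the few reads under the wild-type label: without Setdb2WT replicate 1 it was 3.76. Brdt, a testis member of the BET family that binds acetylated histones, had 87, 109 and 104 reads in the libraries labelled Setdb2KO, against 52, 55 and 52 in those labelled Setdb2WT. Its change was smaller (log2 fold change 0.77, SE 0.18) and came from a level that all 6 libraries held.

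Tex14, which keeps the bridges between dividing germ cells open, had 11, 13 and 3 reads in the libraries labelled Setdb2KO, against 2, 1 and 0 in those labelled Setdb2WT. It fell under the filter. Summed over each group and scaled by library size, its reads gave a ratio of 8.16 (2.51 to 42.0, an exact 95% interval). Here and below such intervals cover counting error only. Tex19.1, a germ cell protein tied to the silencing of transposons, went the other way in a handful of reads, with 0, 1 and 1 in the libraries labelled Setdb2KO, against 4, 5 and 1 in those labelled Setdb2WT, and its near copy Tex19.2 leaves it uncertain. Tex101, a surface protein of germ cells, had 0 reads in the libraries labelled Setdb2KO and 1 read in all in those labelled Setdb2WT.

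Of the 6 piRNA genes tested, Tex15, Tdrd6, Piwil2 and Tdrkh were higher and Tdrd7 and Tdrd9 lower. Tex15, which in mouse works with PIWIL4 in the DNA methylation of transposons, had 224, 138 and 214 reads in the libraries labelled Setdb2KO, against 44, 63 and 44 in those labelled Setdb2WT. That is 4.98 ± 1.2 CPM against 1.44 ± 0.30 CPM (SD, n = 3 each), a log2 fold change of 1.79 (SE 0.22) without overlap. Tdrd6, a Tudor protein of the chromatoid body of spermatids, had 67, 39 and 49 reads in the libraries labelled Setdb2KO, against 7, 4 and 2 in those labelled Setdb2WT. Its log2 fold change was 3.40 (SE 0.43). Piwil2, the PIWI protein MILI that cuts piRNA precursors, had 21, 17 and 36 reads in the libraries labelled Setdb2KO, against 3, 7 and 3 in those labelled Setdb2WT, a log2 fold change of 2.34 (SE 0.50). For these 3 genes every library labelled Setdb2KO lay above every library labelled Setdb2WT.

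Tdrd9, a helicase with a Tudor domain in the PIWIL4 branch, was lower, with 10, 17 and 4 reads in the libraries labelled Setdb2KO, against 19, 29 and 28 in those labelled Setdb2WT (log2 fold change -1.42, SE 0.43). Tdrd7, a chromatoid body protein that the eye lens also uses, had 863, 848 and 881 reads in the libraries labelled Setdb2KO, against 1154, 1184 and 1217 in those labelled Setdb2WT. Its change was narrow but regular, at a log2 fold change of -0.60 (SE 0.054). Tdrkh, which brings PIWI proteins to the mitochondrial surface for trimming, had 2576, 2614 and 2602 reads in the libraries labelled Setdb2KO, against 2133, 2151 and 2168 in those labelled Setdb2WT. The groups were far apart relative to their spread, though the log2 fold change was only 0.13 (SE 0.037). The size of this change depended on the scaling of the libraries, as it was 0.29 with total counts only. In GENCODE, 36.7% of the exonic bases of Tdrkh lie over Oaz3 on the opposite strand, so reads of the 2 genes cannot be told apart without strand, and Oaz3 itself was given 11 reads over the libraries labelled Setdb2KO and 6 over those labelled Setdb2WT.

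Piwil4, the nuclear PIWI protein MIWI2, had 6, 6 and 12 reads in the libraries labelled Setdb2KO, against 6, 7 and 13 in those labelled Setdb2WT. These overlapped, and the summed reads gave a ratio of 0.837 (0.460 to 1.52). Mov10l1, the helicase that hands precursors to PIWI proteins, had 1 read over the libraries labelled Setdb2KO and 7 over those labelled Setdb2WT. Tdrd5 had 8, 1 and 2 reads in the libraries labelled Setdb2KO, against 3, 0 and 2 in those labelled Setdb2WT. Mael, Tdrd1 and Asz1, proteins of the granules in which piRNAs are made, had 1 read each over all 6 libraries.

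Of the genes of the synaptonemal complex and of meiotic cohesin, only Syce2 and Smc1b were read often enough to test. Syce2, of the central element, had 2780, 2964 and 2632 reads in the libraries labelled Setdb2KO, against 1835, 1728 and 1828 in those labelled Setdb2WT, and was higher without overlap (log2 fold change 0.49, SE 0.049). Smc1b, the meiotic cohesin ring subunit, had 936, 695 and 1056 reads in the libraries labelled Setdb2KO, against 1131, 1113 and 1133 in those labelled Setdb2WT. It was lower, at a log2 fold change of -0.47 (SE 0.11), and replicate 2 was again the lowest of its group. Syce1, the central element partner, was read only under the knockout label, with 3, 9 and 10 reads against 0 in each library labelled Setdb2WT. Set against a floor of 3 reads over the 3 libraries at 0, that is 6.65-fold higher. This value leaves out counting error in the Setdb2KO reads, so it is not a lower limit.

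Rec8, the meiotic kleisin of cohesin, had 6, 2 and 1 reads in the libraries labelled Setdb2KO and 0 in each of those labelled Setdb2WT. On the same floor that is 2.72-fold higher, again without counting error. Stag3, its cohesin partner, had 9, 9 and 4 reads in the libraries labelled Setdb2KO, against 8, 10 and 3 in those labelled Setdb2WT, a ratio of 0.95 (0.498 to 1.82). Sycp2 of the lateral element had 1, 0 and 1 reads in the libraries labelled Setdb2KO and 0 in the others. Sycp3, its partner, had 4, 0 and 0 reads in the libraries labelled Setdb2KO, against 2, 2 and 2 in those labelled Setdb2WT. Of its exonic bases 52.2% lie over Chpt1 on the opposite strand, so the source of these reads is uncertain.

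Meiotic recombination genes went in both directions. Zcwpw1, a reader of the histone marks that PRDM9 lays at recombination sites, had the most reads of all members, with 8041, 8426 and 7949 in the libraries labelled Setdb2KO, against 6571, 6635 and 6329 in those labelled Setdb2WT. That is 211 ± 5.8 CPM against 186 ± 3.5 CPM (SD, n = 3 each), a log2 fold change of 0.18 (SE 0.033). Spo11, which makes the DNA breaks that start recombination, was lower, with 61, 31 and 72 reads in the libraries labelled Setdb2KO, against 107, 94 and 96 in those labelled Setdb2WT (log2 fold change -1.0, SE 0.25). Meiob, a single-strand DNA binding protein of meiosis, had 3, 7 and 2 reads in the libraries labelled Setdb2KO, against 1, 0 and 0 in those labelled Setdb2WT. Dmc1, the meiotic strand-exchange protein, had 4, 0 and 5 reads in the libraries labelled Setdb2KO, against 1, 0 and 0 in those labelled Setdb2WT, and overlapped.

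Among the 19 members tested, the 3 largest log2 fold changes were in sperm genes. Catsperd, an accessory subunit of CatSper, had 419, 398 and 465 reads in the libraries labelled Setdb2KO, against 8, 4 and 0 in those labelled Setdb2WT. Its log2 fold change was 6.56 (SE 0.29), and 7.5 without Setdb2WT replicate 1, because the lower level rests on 12 reads. Iqcn, a protein with calmodulin-binding IQ motifs needed for male fertility in mouse, had 446, 425 and 428 reads in the libraries labelled Setdb2KO, against 6, 21 and 14 in those labelled Setdb2WT (log2 fold change 4.83, SE 0.21). Slc25a31, the ADP/ATP carrier of germ cell mitochondria, had 12, 13 and 29 reads in the libraries labelled Setdb2KO, against 1, 0 and 1 in those labelled Setdb2WT. Its log2 fold change was 4.39 with a wide SE of 0.79. In none of these 3 genes did the groups overlap.

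Other CatSper members had smaller differences or few reads. Catsper2, a pore subunit, had 70, 72 and 62 reads in the libraries labelled Setdb2KO, against 33, 52 and 39 in those labelled Setdb2WT, a log2 fold change of 0.58 (SE 0.23). Its call was lost when Setdb2KO replicate 1 or 2, or Setdb2WT replicate 1 or 3, was left out, with log2 fold changes of 0.56, 0.54, 0.42 and 0.53, and in the DESeq2 Wald test (0.59). Catsper3, another pore subunit, had 4, 2 and 1 reads in the libraries labelled Setdb2KO, against 2, 2 and 7 in those labelled Setdb2WT. The accessory subunit genes Catsperg1 and Catspere1, each with a near copy that leaves it uncertain, had 6 and 2 reads over the libraries labelled Setdb2KO, against 3 and 1 over those labelled Setdb2WT.

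Of the sperm tail genes, 1 was lower and 1 did not pass. Odf2, of the outer dense fibres and of centrioles, had 2785, 2810 and 2576 reads in the libraries labelled Setdb2KO, against 3589, 3338 and 3431 in those labelled Setdb2WT, and was lower (log2 fold change -0.48, SE 0.043). Spag6, of the central pair of the axoneme, had 14, 10 and 18 reads in the libraries labelled Setdb2KO, against 10, 0 and 9 in those labelled Setdb2WT. It did not pass, the groups overlapped, and reads shared with its near copy Spag6l leave it uncertain.

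**Figure D2:**
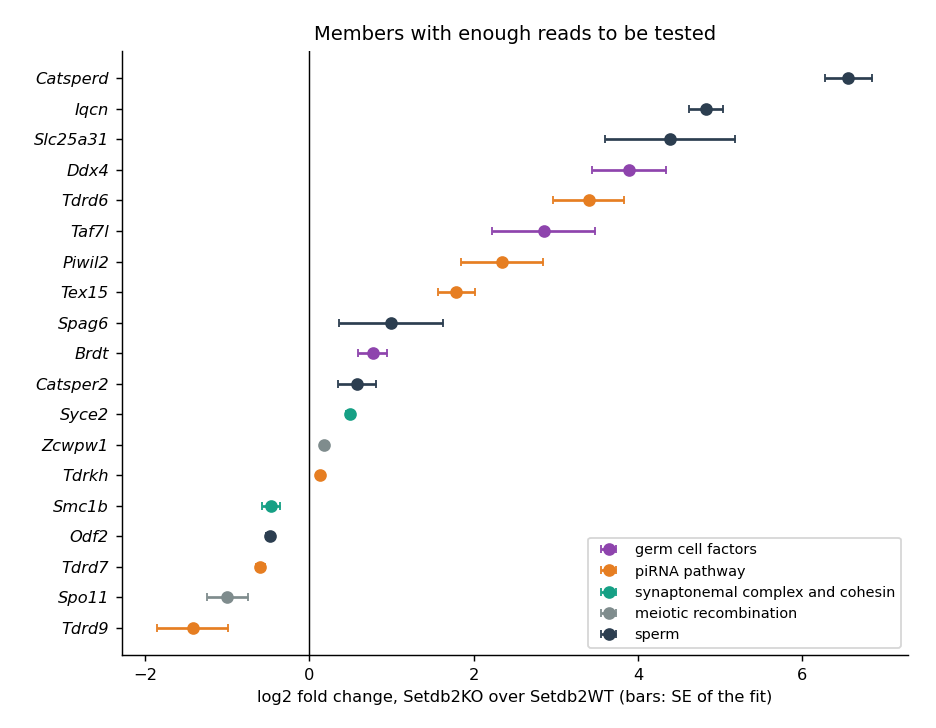
log2 fold change of the libraries labelled Setdb2KO over those labelled Setdb2WT for the 19 members tested, with the SE of the fit as bars (hidden by the point where small) and colours for the role groups. Values run from 6.56 for Catsperd to -1.42 for Tdrd9, and members with few reads have the wide bars.

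Read per length, the members fell into a well-read set and a rarely read set. With exonic lengths from GENCODE M21, 6 members lay above 1 read per kilobase of exon per 1000000 reads in both groups: Zcwpw1, Syce2, Tdrkh, Odf2, Smc1b and Tdrd7. They held 91.5% to 98.1% of all member reads in a library. On this scale Zcwpw1 and Syce2 came to 37.0 ± 1.0 and 36.7 ± 2.0 in the libraries labelled Setdb2KO and did not differ from each other beyond their spread, against 32.6 ± 0.62 and 26.1 ± 1.0 in those labelled Setdb2WT (SD, n = 3 each). Of the 6, 3 were higher and 3 lower, with log2 fold changes of 0.13 to 0.60 in size. The other 13 tested members had at most 0.721 on this scale in the libraries labelled Setdb2WT. A change itself moves a gene across this line. Of the 13, 8 passed the filter through the libraries labelled Setdb2KO alone and Tdrd9 through those labelled Setdb2WT alone. No count of calls is therefore read from the split. Catsperd reached 3.08 and Iqcn 2.45 in the libraries labelled Setdb2KO, against 0.0318 and 0.0850 in those labelled Setdb2WT. No other rarely read member passed 1 in either group, and Ddx4 came to 0.671 against 0.0441.

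**Figure D3:**
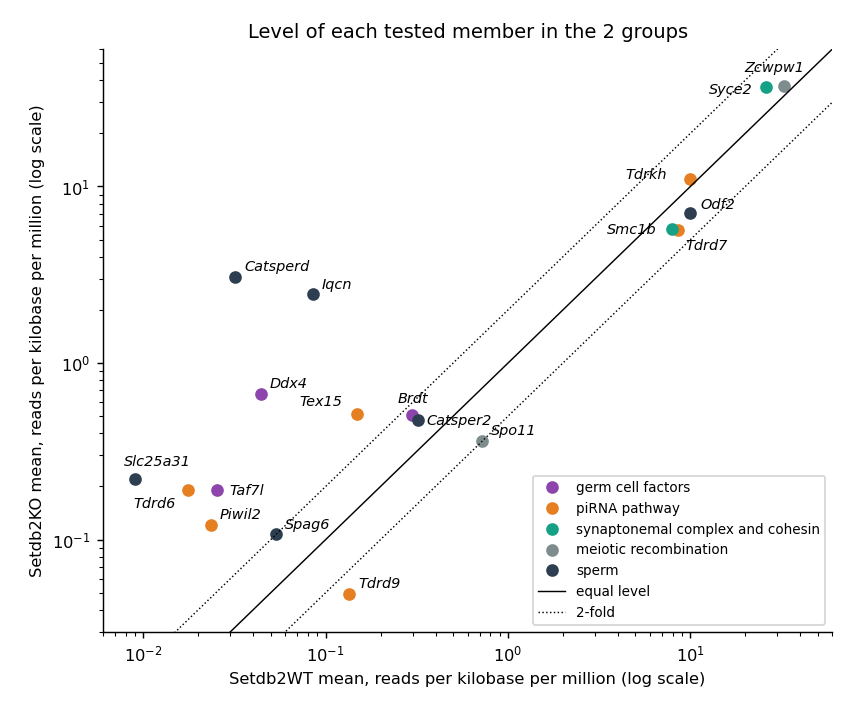
Mean level of the 19 tested members in reads per kilobase of exon per 1000000 reads, libraries labelled Setdb2KO (vertical) against libraries labelled Setdb2WT (horizontal), both log axes, with lines of equal level and of 2-fold difference. The 6 members above 1 in both groups lie within 2-fold, and Catsperd and Iqcn stand farthest above the line.

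Genes next to the members were called about as often as genes at large. The nearest protein-coding genes on each side of the 19 tested members gave 38 neighbours in the RefSeq gene order of GRCm38.p6, of which 27 were tested and 11 were not. Of the 27, 11 (40.7%) were higher and 12 (44.4%) lower, beside 41.5% and 42.3% of all genes tested. Of the neighbours that passed, 11 went in the direction of a called member and 11 in the opposite one. Catsperd lies between Lonp1 and Ranbp3, which were higher by much less (log2 fold changes 0.97, SE 0.034, and 0.24, SE 0.035). Next to Iqcn, Jund did not pass (log2 fold change -0.00, SE 0.034). Piwil2 was higher between 2 genes that were lower, Slc39a14 (-0.79) and Polr3d (-0.72), and so was Taf7l between Drp2 (-0.56) and Timm8a1 (-0.52). Slc25a31 lies between Intu (0.53) and Hspa4l (1.14), both higher.

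Without the filter, all 38 members in the table entered the fit, and 17 were higher and 5 lower, against 28.0% and 28.1% of all 21719 genes. The members added were Tex14, Rec8, Syce1 and Meiob. The 15 members with under 10 reads in every library were Mael, Sycp2, Sycp3, Tex101, Tex19.1, Rec8, Tdrd1, Tdrd5, Mov10l1, Asz1, Dmc1, Meiob, Catsper3, Catsperg1 and Catspere1. Members with at least 1 read numbered 32, 29 and 33 in the libraries labelled Setdb2KO, against 29, 28 and 25 in those labelled Setdb2WT. Over the whole table, genes with a read numbered 17900, 17926 and 17852 in the libraries labelled Setdb2KO, against 17252, 17216 and 17181 in those labelled Setdb2WT. Summed over all members in the table, the level was 506, 510 and 504 CPM in the libraries labelled Setdb2KO, against 479, 468 and 472 CPM in those labelled Setdb2WT. Without the 6 well-read members, the summed level was 41.4, 35.8 and 42.7 CPM in the libraries labelled Setdb2KO, against 9.55, 10.5 and 9.20 CPM in those labelled Setdb2WT. Leaving out Catsperd and Iqcn as well, it was 19.0, 14.6 and 19.4 CPM in the libraries labelled Setdb2KO, against 9.15, 9.81 and 8.79 CPM in those labelled Setdb2WT. The members, and those left out of each sum, were chosen with the contrast known, so nothing is read from these sums. In bulk RNA, more cells with a transcript and more transcript per cell cannot be told apart.

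Other germline genes, listed from textbook roles, went in both directions. Of 154 such genes 107 were in the table and 36 were tested, and 20 of the 36 (55.6%) were higher and 12 (33.3%) lower in the libraries labelled Setdb2KO, beside 41.5% and 42.3% of all genes tested. Their median log2 fold change was 0.49, against 0.00 over all genes tested. Some of those higher, such as Catsperz, Spem1 and Gdf9, passed the filter through the libraries labelled Setdb2KO alone. Nanog, which was lower, passed it through those labelled Setdb2WT alone. The lists were also chosen with earlier results of these data known, so nothing is read from these counts or from the median. Among other sperm genes 7 of the 10 tested were higher and 3 lower. Tekt2, a tektin of the flagellum, had 172, 213 and 178 reads in the libraries labelled Setdb2KO, against 23, 25 and 23 in those labelled Setdb2WT (log2 fold change 2.84, SE 0.19). Catspere2, the near copy of Catspere1, had 105, 111 and 118 reads in the libraries labelled Setdb2KO, against 26, 8 and 24 in those labelled Setdb2WT. Acrbp, which binds proacrosin, was higher at a log2 fold change of 1.68 (SE 0.14) and Spata7 at 0.62 (SE 0.077). Tekt2 and Acrbp share 20.8% and 32.5% of their exonic bases with other annotated genes. In edgeR's test the adjusted p of these 4 genes lay between 3.4e-09 and 3.7e-06.

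Of 14 other meiosis genes 7 were higher, 5 lower and 2 did not pass. Mnd1 and Psmc3ip, whose proteins form the heterodimer that helps DMC1, were both lower. Mnd1 had 178, 162 and 111 reads in the libraries labelled Setdb2KO, against 549, 597 and 631 in those labelled Setdb2WT (log2 fold change -2.12, SE 0.13). Psmc3ip had a log2 fold change of -1.22 (SE 0.074), and 21.2% of its exonic bases lie over Mlx on the opposite strand. Sun1, which ties telomeres to the nuclear envelope, was higher at 0.48 (SE 0.033), and Tex264, a receptor for selective autophagy of the endoplasmic reticulum whose name alone points to the testis, at 1.18 (SE 0.040). Of 3 other piRNA genes tested, only Mybl1, the transcription factor A-MYB that turns on piRNA genes in meiosis, passed. It had 1888, 1271 and 1975 reads in the libraries labelled Setdb2KO, against 516, 596 and 534 in those labelled Setdb2WT (log2 fold change 1.5, SE 0.13). All 5 passed edgeR's test at an adjusted p of 9.5e-08 or less.

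Of 6 tested genes of germ cell specification and spermatogonia, 2 were higher and 4 lower, beside 41.5% and 42.3% of all genes tested. Zbtb16, the transcription factor PLZF of spermatogonial stem cells, had 60, 37 and 54 reads in the libraries labelled Setdb2KO, against 1044, 910 and 959 in those labelled Setdb2WT (log2 fold change -4.41, SE 0.13). Gfra1, the GDNF receptor, had 56, 45 and 36 reads in the libraries labelled Setdb2KO, against 502, 467 and 494 in those labelled Setdb2WT (log2 fold change -3.55, SE 0.14). Id4, which blocks DNA binding by helix-loop-helix partners, was lower too (log2 fold change -2.74, SE 0.31). These genes are also used outside the germ line. Dnd1, an RNA-binding protein of primordial germ cells, went the other way, with 318, 199 and 238 reads in the libraries labelled Setdb2KO, against 23, 23 and 42 in those labelled Setdb2WT (log2 fold change 2.95, SE 0.24). The 3 tested oocyte genes were higher, a count too small to set against the 41.5% of all genes. Npm2, a histone chaperone of the egg, had 311, 285 and 248 reads in the libraries labelled Setdb2KO, against 56, 39 and 37 in those labelled Setdb2WT (log2 fold change 2.53, SE 0.17), and Tle6, of the subcortical maternal complex, had a log2 fold change of 0.82 (SE 0.15). In edgeR's test the adjusted p of these 6 genes lay between 3.9e-13 and 1.5e-04.

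**Figure D4:**
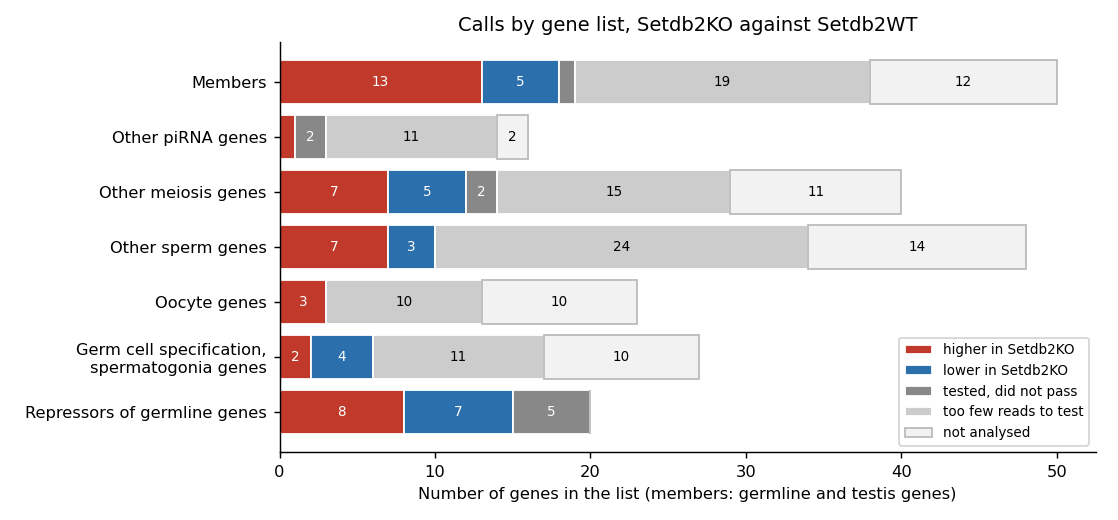
Number of genes in each list that were higher (red) or lower (blue) in the libraries labelled Setdb2KO than in those labelled Setdb2WT, tested without passing (dark grey), too rarely read to test (light grey) or not analysed (open). Of the germline and testis members 13 were higher and 5 lower, and the repressor list was split at 8 and 7. Over all genes tested 41.5% were higher and 42.3% lower.

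Genes known to keep the germ line silent were called about as often as genes at large. Of 20 listed repressors, all tested, 8 (40%) were higher, 7 (35%) lower and 5 did not pass, beside 41.5% and 42.3% of all genes tested. Mga, the scaffold of the E2F6 complex, had 8256, 8003 and 8277 reads in the libraries labelled Setdb2KO, against 2585, 2558 and 2572 in those labelled Setdb2WT (log2 fold change 1.53, SE 0.034). Pcgf6, the Polycomb ring finger protein of the same complex, was higher as well (log2 fold change 0.97, SE 0.044). Lower were Uhrf1, which brings DNMT1 to newly copied DNA, and Trim28, the KAP1 partner of zinc finger repressors (log2 fold changes -1.20, SE 0.034, and -0.87, SE 0.031). Adjusted p over these 4 genes was at most 4.7e-11 in edgeR's test. Outside the naming rule, E2f6 itself was lower (log2 fold change -0.52, SE 0.087) and Max higher (0.58, SE 0.037). The genes of the E2F6 complex therefore went in both directions. Whether any of these repressors bears on the members was not tested.

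Markers of other cells that read such genes were looked up as well. Of 10 Sertoli cell markers 7 were in the table, with a summed level of 17.5 to 18.3 CPM in the libraries labelled Setdb2KO, against 9.71 to 11.2 CPM in those labelled Setdb2WT, most of it Sox9. Gata4, a defining factor of that cell type, had 0 reads in each library labelled Setdb2KO and 1 read in all in those labelled Setdb2WT. Amh, Dhh, Tsx and Aard had 160, 30, 36 and 3 reads over the libraries labelled Setdb2KO, against 112, 10, 19 and 0 over those labelled Setdb2WT. Gata1 had 1 against 7. Amh did not pass, and Dhh, Tsx, Aard and Gata1 fell under the filter. Of 6 Leydig cell markers 3 were in the table, at 5.16 to 5.73 CPM in the libraries labelled Setdb2KO, against 2.41 to 3.43 CPM in those labelled Setdb2WT, most of it Star. Cyp11a1, which starts steroid synthesis, had 0 reads over the libraries labelled Setdb2KO and 2 over those labelled Setdb2WT. All 9 markers of motile cilia were in the table, at 8.91 to 9.74 CPM in the libraries labelled Setdb2KO, against 4.62 to 6.89 CPM in those labelled Setdb2WT. Foxj1, the master factor of motile cilia, had 74, 121 and 75 reads in the libraries labelled Setdb2KO, against 96, 75 and 83 in those labelled Setdb2WT, and overlapped. Most of the difference in the sum was Ccdc39, an axoneme assembly gene, with 270, 200 and 237 reads in the libraries labelled Setdb2KO, against 108, 67 and 84 in those labelled Setdb2WT. Of the exonic bases of Ccdc39, 16.9% lie over Ttc14 on the opposite strand. Dnai1, a dynein chain gene, had 3, 3 and 2 reads in the libraries labelled Setdb2KO and 0 in the others. Rsph1 of the same list went the other way. It had 3, 7 and 3 reads in the libraries labelled Setdb2KO, against 7, 17 and 12 in those labelled Setdb2WT. The immune markers (3 of 5 in the table) summed to 9.38 to 11.8 CPM in the libraries labelled Setdb2KO, against 13.7 to 15.2 CPM in those labelled Setdb2WT. Within them Csf1r was lower (log2 fold change -0.89, SE 0.10) and Cd68 higher (0.32, SE 0.14), and Ptprc had 0 reads over the libraries labelled Setdb2KO and 14 over those labelled Setdb2WT. The 4 endothelial markers summed to 1.59 to 2.79 CPM in the libraries labelled Setdb2KO, against 3.43 to 4.09 CPM in those labelled Setdb2WT. That lower sum was Kdr (log2 fold change -0.90, SE 0.21), whereas Pecam1 went the other way, with 18, 12 and 9 reads in the libraries labelled Setdb2KO, against 3, 3 and 2 in those labelled Setdb2WT. The part of these cells' genes in the members' changes was not tested.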

How the data were processed

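The authors deposited unnormalised counts of reads for each gene and library. The submitters' processing notes name fastp, HISAT, HTSeq and GRCm39. Neither the tool versions nor the annotation and strand setting were found, being not given in the sources used here. Columns were matched to samples by genotype and number in their names, and 0 stayed unmatched.

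Counts were fitted with edgeR 4.0.16 (R 4.3.3): TMM scaling, filterByExpr at a minimum count of 10, a quasi-likelihood F test with genotype as the only term, a prior count of 0.125, with p-values adjusted by Benjamini-Hochberg across the 13509 genes tested. The SE is the log2 fold change divided by the root of its F statistic. CPM use TMM-scaled library sizes. Exact intervals are Clopper-Pearson at 95%. A gene at 0 in a group was set to 3 reads over that group. The code was tested on simulated counts.

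Members, lists and tests were chosen with earlier results of these data known. Every member with at least 10 reads in a library is given in full. From each other list come up to 4 genes that passed and averaged 0.5 CPM or more, taken in order of adjusted p. Exonic lengths and overlaps are from GENCODE M21 and promoters from RefSeq, both on GRCm38. The alternatives were 3 other scalings, 2 other filters, the DESeq2 1.42.0 Wald test, a replicate block and each library left out.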

Additional observations from a re-analysis of the deposited data

How the results depend on the processing

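The counts of members and of other germline genes called higher or lower stayed within 1.5 times of the reported value under each alternative tried. Members numbered 10 to 17 higher and 4 to 5 lower over all alternatives, and 12 to 14 higher and 5 lower with a library left out. Other germline genes numbered 17 to 28 higher and 9 to 15 lower. Of 489 fits of the 38 tested genes named by the rule under an alternative, 484 kept direction and side of the threshold, 5 lost the call and 0 reversed. All 5 were Catsper2. Setdb2 itself passed under total-count scaling alone (log2 fold change 0.88, adjusted p = 0.043 in edgeR's test, 0.043 to 0.32 over its alternatives), a scaling that moved the median of all genes from 0.005 to 0.159. Same-numbered libraries of the groups did not deviate together over the genes tested (correlations 0.000719, -0.0301 and -0.0117). The labels state no pairing, and this check could not exclude one. The replicate block left 13 members higher and 5 lower, with 5529 genes higher and 5661 lower in all. For the members under 10 reads in every library, counting error is wide, as in Meiob, whose ratio of 10.9 has an exact interval of 1.61 to 465.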

Other observations

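Of the other germline genes called, 10 higher and 7 lower in the libraries labelled Setdb2KO fall outside the naming rule. The examples here were chosen after their values were seen. Spem1, a cytoplasmic protein of spermatids, had 34, 41 and 25 reads in the libraries labelled Setdb2KO, against 0, 1 and 2 in those labelled Setdb2WT (log2 fold change 4.76, SE 0.59). Gdf9, a growth factor of the oocyte, had 28, 41 and 25 reads in the libraries labelled Setdb2KO, against 2, 2 and 4 in those labelled Setdb2WT (log2 fold change 3.36, SE 0.47). Prdm9, the methyltransferase that marks sites of meiotic recombination, had 445, 508 and 470 reads in the libraries labelled Setdb2KO, against 209, 220 and 231 in those labelled Setdb2WT (log2 fold change 0.97, SE 0.092). Catsperz, a further CatSper subunit, had 17, 21 and 14 reads in the libraries labelled Setdb2KO, against 0, 3 and 1 in those labelled Setdb2WT (log2 fold change 3.45, SE 0.65), and 46.5% of its exonic bases lie over Kcnk4. Among those that were lower, Nanog, a pluripotency factor, had 2, 6 and 8 reads in the libraries labelled Setdb2KO, against 11, 11 and 29 in those labelled Setdb2WT (log2 fold change -1.79, SE 0.57). Ccna1, the cyclin of male meiosis, had 32, 39 and 21 reads in the libraries labelled Setdb2KO, against 68, 72 and 46 in those labelled Setdb2WT (log2 fold change -1.15, SE 0.28). Trip13, Hspa2, Tssk6, Cntd1 and Spata6 were lower by less, with log2 fold changes of -0.45, -0.44, -0.49, -0.56 and -0.27. Of the exonic bases of Cntd1 and Tssk6, 72.1% and 29.2% lie over genes on the opposite strand, so the source of their reads is uncertain. In each gene named in this section the groups did not overlap. Over all genes tested 42.0% lay above and 42.7% below without overlap, so nothing is read from this.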
